A study of Mus musculus with 7 samples.

Results

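Ibuprofen within facial vein collection was examined in 2 of the 7 RNA sequencing libraries of the series, chosen by their labels alone. The library FV with ibuprofen was made from peripheral blood mononuclear cells, or PBMCs, a fraction of lymphocytes and monocytes, of mice bled from the facial vein and given ibuprofen. FV without ibuprofen came from mice bled by the same route and not given the drug, both at week 8 of serial collection. The other 5 libraries, shown only as values beside this pair, were the retro-orbital plexus (RP) and tail vein (TV) routes, each with and without ibuprofen, and a control named Non. The labels give no strain, sex, age or dose of drug, and do not say how many animals a library holds. Each group had 1 library. Differences are therefore described by size, with no test, and every interval below covers counting error only.

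Ibuprofen inhibits the cyclooxygenases encoded by Ptgs1 and Ptgs2, which start the conversion of arachidonic acid to prostaglandins and thromboxane. Prostaglandins act on receptors of leukocytes and platelets, and the drug is used against pain, fever and inflammation. Monocytes and any neutrophils left in the mononuclear layer carry receptors for microbial products and cytokines and respond with acute-phase and chemokine transcripts, while lymphocytes and platelets have their own marker genes.

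The libraries held 49711482 counts (FV with ibuprofen) and 47903611 counts (FV without ibuprofen), and 47903611 to 63801032 over all 7. Counts were scaled by TMM (trimmed mean of M values) to CPM, the count a gene would have in a library of fixed size, with a factor of 1.31 for FV with ibuprofen and 1.17 for FV without. At 10 CPM, the lowest mean level used, FV with ibuprofen held 654 counts (exact Poisson 95% interval 605 to 706) and FV without 560 (515 to 608). Adult globin took 46.3% of counts in FV with ibuprofen, against 53.4% in FV without ibuprofen, and 54.0% to 70.9% in the other libraries. The defining markers of the cells expected in PBMCs were present in both FV libraries. Cd3e of T cells stood at 52.8 CPM in FV with ibuprofen and 38.2 CPM in FV without, and Cd79a of B cells at 93.3 CPM with and 60.0 CPM without. Ncr1 of NK cells stood at 27.9 CPM with and 27.7 CPM without, and Ccr2 of classical monocytes at 494 CPM with and 530 CPM without. Platelet Pf4 stood at 546 CPM in FV with ibuprofen against 345 CPM in FV without. The neutrophil marker Ly6g was low, at 1.27 CPM in FV with ibuprofen and 1.79 CPM in FV without. In such bulk libraries, fewer cells of a type and less RNA per cell cannot be told apart.

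With ibuprofen, transcripts of mature neutrophils, acute-phase proteins and immediate-early factors were lower, while B cell, T cell and platelet transcripts were moderately higher. Of the 6239 genes that averaged 10 CPM or more in the FV pair, 118 (1.89%) were at least 2-fold apart. Of them 86 were at least 2-fold lower in FV with ibuprofen, or 1.38% of genes measured, and 32 were at least 2-fold higher, or 0.513%. At 1.5-fold the sides were nearly even, with 268 lower and 292 higher. At 3-fold, 25 genes were lower and 4 higher, and at 4-fold 11 were lower and 2 higher. The median log2 fold of all 6239 genes was 0.02. Of these genes 54.1% lay above 0 and 45.9% below, the shares beside which the counts of list members are to be read. The middle part of the distribution, from the lower to the upper quartile, ran from -0.14 to 0.20. The 1st and 99th percentiles were -1.11 and 0.87. The calls were not limited to weakly expressed genes. At least 2-fold lower were 1.14% of genes at 10 to 20 CPM, 1.49% at 20 to 50 CPM, 1.45% at 50 to 200 CPM and 2.1% above 200 CPM. For all 118 genes the 95% counting interval of the ratio (exact conditional binomial) lay on its own side of 0. This followed from the limits on level and fold, as the widest interval spanned 0.84 in log2, and adds no support to the calls. Of the lower genes, 23 were under 10 CPM in FV with ibuprofen, among them Il1r2 and Lbp, and 11 of the higher genes were under 10 CPM in FV without. Such genes passed the level limit only through the library in which they were high, so the counts are a description of the genes that passed.

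**Figure D1:**
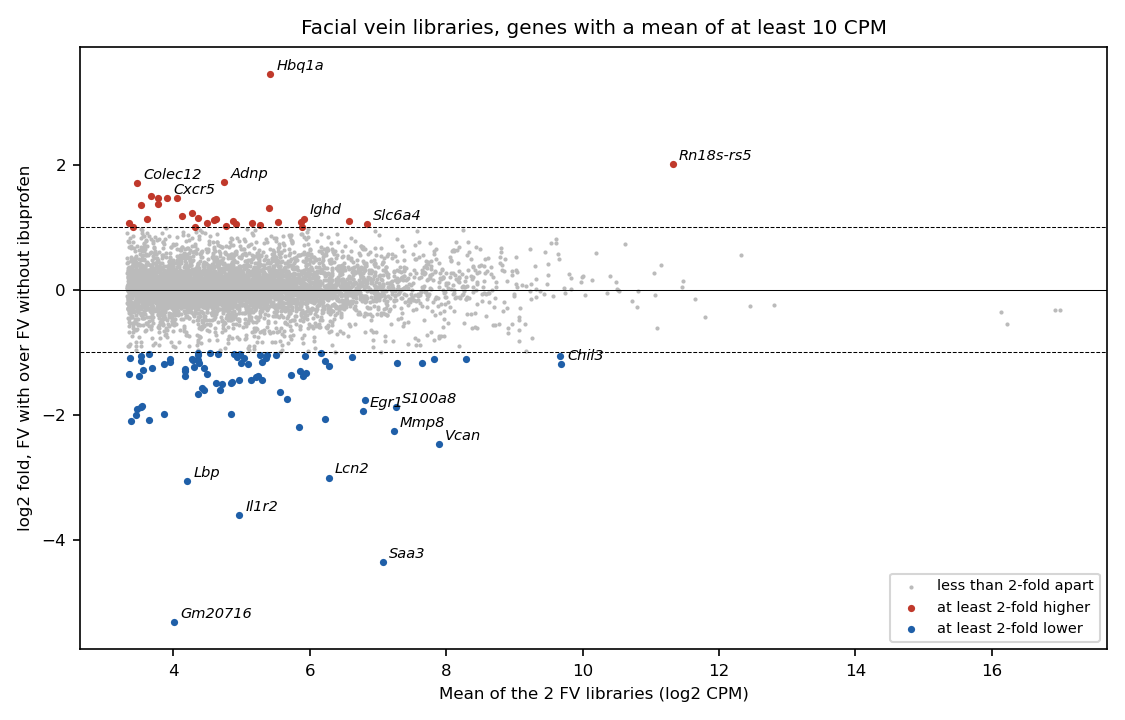
Log2 fold of FV with over FV without ibuprofen (y axis) against the mean of both libraries in log2 CPM (x axis), 1 point per gene for 6239 genes; dashed lines mark 2-fold. The 86 genes in blue reach further from 0 than the 32 in red, with Saa3, Il1r2, Lbp and Lcn2 lowest among genes of known product.

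The split depended on the scale. On the deposited TPM values, which also account for transcript length and into which the globin share enters, the median of the same genes stood at 0.26, with 89 genes higher and 36 lower. Counted from that median, 21 were higher and 67 lower. The 4 other count-based scalings gave 26 to 28 genes higher and 88 to 97 lower.

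The lowest named genes encode secreted and surface proteins of acute inflammation. Saa3, the serum amyloid A form that mouse macrophages and other cells make outside the liver, stood at 12.6 CPM in FV with ibuprofen and 256 CPM in FV without ibuprofen, a log2 fold of -4.35 (counting interval -4.45 to -4.25). The other 5 libraries held 0.157 to 17.4 CPM, so the FV library without ibuprofen was the highest of 7. Il1r2, a decoy receptor that binds interleukin-1 without signalling, stood at 4.73 CPM in FV with ibuprofen against 57.7 CPM in FV without, a log2 fold of -3.60 (-3.78 to -3.44), and at 0.814 to 3.94 CPM elsewhere. Lbp, which carries bacterial lipopolysaccharide to its receptor, stood at 3.93 CPM in FV with ibuprofen against 32.8 CPM in FV without, a log2 fold of -3.05 (-3.25 to -2.87), and at 1.57 to 3.32 CPM elsewhere. Lcn2, a lipocalin that binds bacterial iron carriers, stood at 17.2 CPM in FV with ibuprofen and 138 CPM in FV without, a log2 fold of -3.00 (-3.09 to -2.91). FV with ibuprofen was itself above each of the 5 other libraries for Il1r2, Lbp and Lcn2, the last of which reached 16.5 CPM there, whereas for Saa3 it was below TV without ibuprofen.

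Saa3 lies on mouse chromosome 7 (46711998 to 46719615), Il1r2 on chromosome 1 (40084692 to 40125230), Lbp on chromosome 2 (158306493 to 158332852) and Lcn2 on chromosome 2 (32384637 to 32387739), in build GRCm38.p6, the same assembly as mm10. RefSeq promoters of the first listed start, from 250 bases before to 50 after it, are shown for the lowest named genes with an entry, since these genes were low together. Capitals mark matches, on either strand, to a C/EBP motif (TTGCNNAA) or a GATA motif (AGATAA); a kappa B motif and an AP-1 motif (TGANTCA) were searched too and had no match in these windows.
Saa3 (chr7:46715627-46715926, minus strand): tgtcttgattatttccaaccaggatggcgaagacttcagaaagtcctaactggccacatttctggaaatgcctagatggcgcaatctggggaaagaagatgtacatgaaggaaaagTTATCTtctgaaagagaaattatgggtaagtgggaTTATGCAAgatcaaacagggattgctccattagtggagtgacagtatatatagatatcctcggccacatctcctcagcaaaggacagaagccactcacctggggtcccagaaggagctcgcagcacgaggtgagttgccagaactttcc
Il1r2 (chr1:40085843-40086142, plus strand): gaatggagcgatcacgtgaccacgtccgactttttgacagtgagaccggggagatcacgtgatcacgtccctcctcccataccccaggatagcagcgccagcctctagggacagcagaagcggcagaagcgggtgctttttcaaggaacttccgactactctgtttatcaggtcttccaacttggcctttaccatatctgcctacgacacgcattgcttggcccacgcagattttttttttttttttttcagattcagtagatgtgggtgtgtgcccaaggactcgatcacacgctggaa
Lcn2 (chr2:32387690-32387989, minus strand): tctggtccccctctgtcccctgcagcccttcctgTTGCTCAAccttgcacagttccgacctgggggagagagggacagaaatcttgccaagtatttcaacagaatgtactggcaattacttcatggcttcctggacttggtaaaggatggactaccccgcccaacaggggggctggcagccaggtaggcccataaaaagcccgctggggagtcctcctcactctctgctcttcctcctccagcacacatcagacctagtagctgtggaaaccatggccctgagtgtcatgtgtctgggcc

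The C/EBP match began 99 bases before the start of Saa3 and 216 bases before that of Lcn2, and the GATA match 134 bases before the start of Saa3. Vcan, the next lowest named gene with an entry, had no match to any of the searched motifs in its window, which is not shown. Over the measured genes with a promoter entry, the C/EBP motif was found in 9 of 64 promoters of lower genes (14.1%), in 1 of 21 of higher genes (4.76%) and in 417 of 4958 of all genes (8.41%). The kappa B motif was found in 10.9%, 4.76% and 10.3% of the same sets, the AP-1 motif in 6.25%, 4.76% and 4.88%, and the GATA motif in 7.81%, 4.76% and 6.01%. These shares are a description of letters in a window and were not tested.

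Of the 24 genes on the acute-phase list, 5 passed the level limit, with a median log2 fold of -2.19 against 0.02 for all genes. Besides Saa3 and Lcn2, Lrg1, a leucine-rich plasma glycoprotein, stood at 20.5 CPM in FV with ibuprofen and 93.7 CPM in FV without (log2 fold -2.19). Complement C3 stood at 132 CPM with ibuprofen and 244 CPM without (-0.89) and haptoglobin, Hp, at 159 CPM with and 261 CPM without (-0.72), both less than 2-fold apart. Most of the list lay far below the limit. Orm1 had 0 counts in FV with ibuprofen and 25 in FV without, and Saa1 had 0 and 9, both at 0 or 1 count in every other library. All 5 measured genes were above 10 CPM in both FV libraries.

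**Figure D2:**
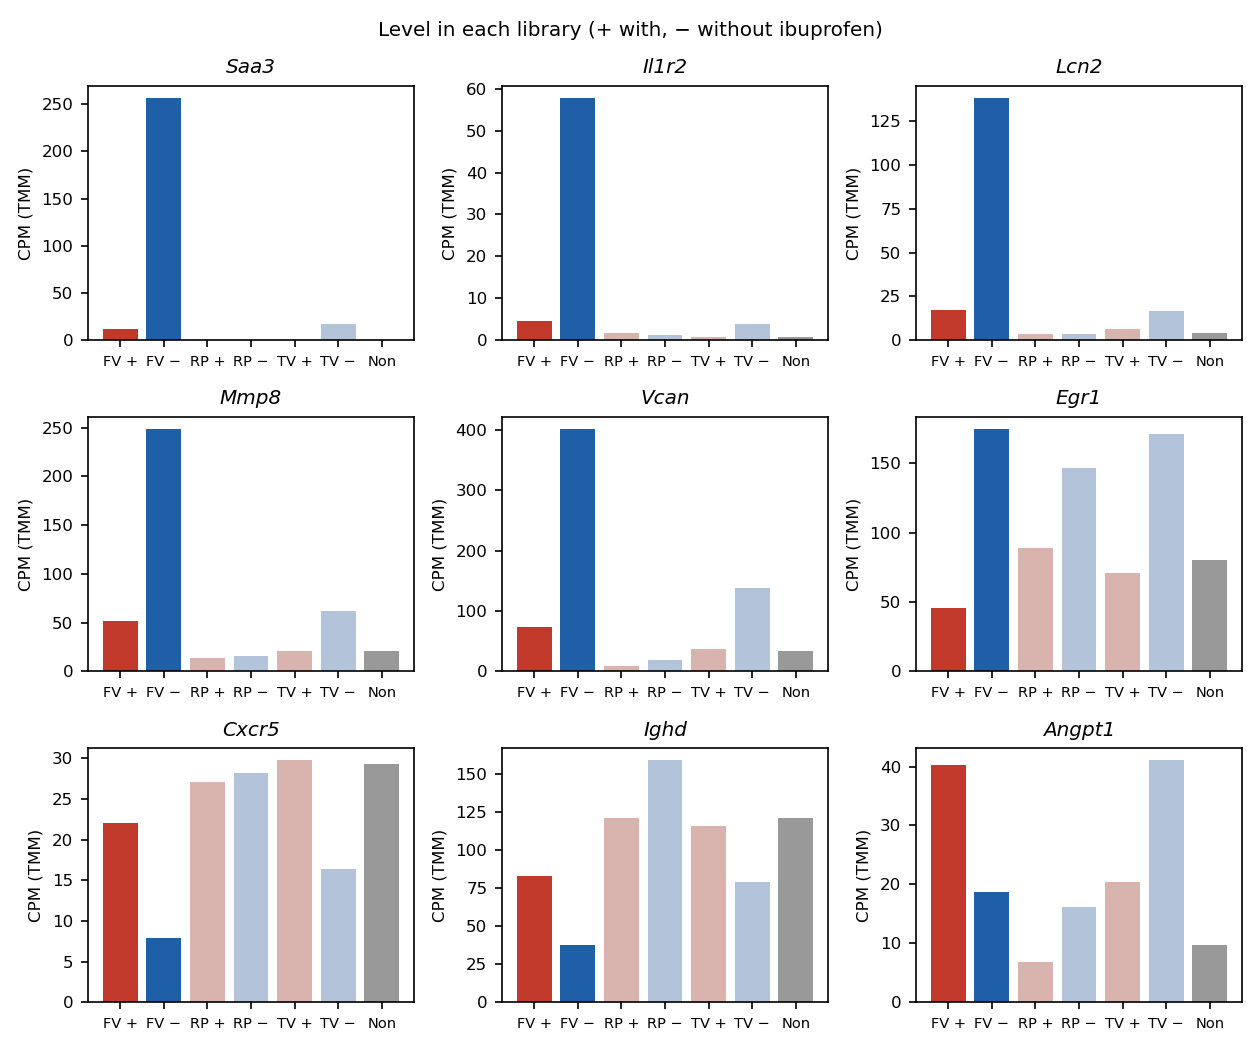
Level of 9 named genes in each of the 7 libraries (CPM after TMM, linear axes from 0; + with and − without ibuprofen). Saa3, Il1r2, Lcn2, Mmp8 and Vcan peak in FV without ibuprofen, Egr1 is lower with ibuprofen in each route, Cxcr5 and Ighd are lowest in FV without ibuprofen, and Angpt1 stands at 40.2 CPM in FV with ibuprofen against 18.8 CPM in FV without.

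Neutrophil genes of mature cells were lower, whereas the list of precursor and granule genes was divided. Of 28 genes on the list of neutrophil maturity and receptors, 21 passed the level limit. All 21 were below 0, 11 of them at least 2-fold, and their median was -1.03. Mmp8, the neutrophil collagenase, stood at 51.9 CPM in FV with ibuprofen and 248 CPM in FV without (-2.26, interval -2.31 to -2.21). The calprotectin subunits S100a8 and S100a9 had log2 folds of -1.87 and -1.16, with S100a8 at 65.9 CPM in FV with ibuprofen against 241 CPM in FV without, and S100a9 at 124 against 278 CPM. Cxcr2, the chemokine receptor that directs neutrophils out of the marrow, stood at -1.05, the formyl peptide receptors Fpr1 and Fpr2 at -1.14 and -1.03, and the amplifying receptor Trem1 at -1.25. Smaller differences were seen for the growth factor receptor Csf3r at -0.30 and the peptidoglycan-binding Pglyrp1 at -0.27. Neutrophil genes thus ranged from near even to several-fold lower.

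Among 18 genes of neutrophil precursors and their granules, 8 passed the limit, and their median was -0.20 (0.07 on the TPM scale). Lcn2, the leukotriene receptor Ltb4r1 (-1.30) and the chitinase-like Chil3 (-1.18) were at least 2-fold lower. Each is also on another list, Lcn2 on the acute-phase, Ltb4r1 on the leukotriene and Chil3 on the classical monocyte list. Ngp, a protein of secondary granules, stood at 17.5 CPM in FV with ibuprofen and 17.6 CPM in FV without (-0.01), and lactoferrin, Ltf, at 16.2 and 14.9 CPM (0.12, interval -0.01 to 0.25). The other 5 libraries held less of both, 0.842 to 2.49 CPM of Ltf and 0.855 to 3.27 CPM of Ngp. Below the limit, the cathelicidin Camp had 213 counts in FV with ibuprofen and 82 in FV without, and myeloperoxidase, Mpo, had 56 and 15. The elastase gene Elane had 0 counts in FV with ibuprofen and 45 in FV without, Ms4a3 had 0 and 19, Fcnb 15 and 81, and proteinase 3, Prtn3, 162 and 312. Granule genes of the same early stage therefore stood on both sides.

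Classical monocyte genes were mostly lower, though Lyz2, the most abundant of the list, was close to even. The next in level, Chil3, Fn1 and F13a1, stood at -1.18, -1.06 and -0.77. Each of the 27 genes on the list passed the level limit; 5 were at least 2-fold lower, 21 lay below 0, and the median was -0.48. Vcan, a large proteoglycan that marks classical monocytes, stood at 72.8 CPM in FV with ibuprofen and 401 CPM in FV without (-2.46, interval -2.51 to -2.42). Fibronectin, Fn1, stood at 528 CPM with ibuprofen and 1100 CPM without (-1.06), and Chil3 at 502 CPM with and 1140 CPM without. The dipeptidase Dpep2 stood at 12.8 CPM with and 38.6 CPM without (-1.59), and the sialic acid receptor Cd33 at 15.4 CPM with and 42.7 CPM without (-1.47). In contrast, lysozyme Lyz2 was at 0.05, Mpeg1, which forms pores in microbes, at 0.07, the chemokine receptor Ccr2 at -0.10 and the marker Ly6c2 at -0.47. Clec7a, the receptor for fungal beta-glucan, was the highest of the list at 0.74. The lipopolysaccharide coreceptor Cd14 stood at 45.4 CPM in FV with ibuprofen and 75.2 CPM in FV without (-0.73).

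Nonclassical monocyte genes did not share this direction. Among 20 genes on that list, 19 passed the limit and 16 were above 0, with a median of 0.27 and none 2-fold apart. The fractalkine receptor Cx3cr1 stood at 80.4 CPM in FV with ibuprofen and 45.0 CPM in FV without (0.84). Ace was at 0.28 and the leukosialin Spn at 0.58. Nr4a1, which this subset needs and which is also an immediate-early gene, was the lowest of the list at -0.80.

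Some lower genes outside every list are named here after their values were seen. The complement regulator properdin, Cfp, stood at 23.3 CPM in FV with ibuprofen and 78.4 CPM in FV without, the metalloproteinase Mmp19 at 51.3 and 174 CPM, and the chitinase-like Chil1 at 23.0 and 71.1 CPM. Receptors were among them. The C5a receptor C5ar1 had a log2 fold of -1.37, the chemokine receptor Ccr1 -1.37, and the scavenger receptor Msr1 -1.14. The cytokine oncostatin M, Osm, stood at -1.38 and coagulation factor X, F10, at -1.15. By the naming rule, the prion protein gene Prnp (-2.10), the metal transporter Slc39a14 (-2.08), the leukocyte receptors Lilrb4a (-2.06) and Lilr4b (-1.99), Nxpe5 (-2.00) and the mitochondrial arginase Arg2 (-1.90), which overlaps Vti1b (-0.04), belonged to the 14 lowest. Prnp and Slc39a14 differed from the rest of these in level elsewhere, since Prnp held 2.93 to 4.46 CPM and Slc39a14 4.13 to 5.34 CPM in the 5 other libraries, close to their 3.93 and 4.76 CPM in FV with ibuprofen. Lilrb4a and Lilr4b are near copies whose reads may be split between them; summed, they stood at 40.4 CPM in FV with ibuprofen and 166 CPM in FV without.

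Immediate-early genes, whose transcription starts within minutes of a stimulus, were lower as a group. Of 30 on the list, 22 passed the limit, 20 lay below 0, 5 were at least 2-fold lower, and the median was -0.72. Egr1 stood at 45.8 CPM in FV with ibuprofen against 175 CPM in FV without (-1.93, interval -1.99 to -1.87). FV with ibuprofen was the lowest of the 7 libraries for Egr1, where Non had 80.3 CPM. Fosb was at -1.45, Jun at -1.30, Dusp2 at -1.02 and Atf3 at -1.01. The abundant members Fos (387 CPM in FV with ibuprofen, 765 CPM in FV without), Zfp36 (387 and 686 CPM) and Dusp1 (204 and 380 CPM) were just under 2-fold apart. Klf2, a factor of resting lymphocytes, was above 0 at 0.37.

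Several chaperones of the endoplasmic reticulum were lower, and cytosolic chaperones varied. On the list of heat shock and unfolded protein genes, 24 of 30 passed the limit, 22 lay below 0, and 4 were at least 2-fold lower, with a median of -0.31. Those 4 were the disulfide isomerase Pdia6 (46.9 CPM in FV with ibuprofen, 109 CPM in FV without, -1.21), Sdf2l1 (-1.13), the BiP gene Hspa5 (143 and 308 CPM, -1.10) and Creld2 (-1.03). Hsp90b1, Manf, Calr, Pdia4 and Xbp1, which act in or switch on the same compartment, stood between -0.80 and -0.66. The cytosolic Hsp90ab1, Hsp90aa1 and Hspa8 were at -0.39, -0.29 and -0.27, Hsf1, the heat shock regulator, at 0.01, and the co-chaperone Dnajb4 was the highest of the list at 0.59. Below the level limit, the inducible Hspa1a had 81 counts in FV with ibuprofen and 198 in FV without (-1.49), and its near copy Hspa1b had 94 and 253 (-1.63). Plasma cells are rich in these endoplasmic proteins, and of that list 8 of 16 genes passed, with a median of -0.24. Igha stood at 263 CPM in FV with ibuprofen and 400 CPM in FV without (-0.60) and Jchain at 74.4 and 101 CPM (-0.43), while Irf4 stood at 0.66 and Mzb1 at 0.49. The summed level of the plasma cell list was 684 CPM with ibuprofen and 889 CPM without in FV, and 387 to 613 CPM in the others. Its part in the chaperone differences was not tested.

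Cytokine and NF-kB genes did not move as a block. Of 37 listed, 18 passed the limit, 8 lay below 0 and 10 above, and the median of 0.10 changed sign with the level limit, to -0.12 at 1 CPM and -0.37 at 50 CPM. Inhibitors and related regulators that NF-kB induces stood on both sides, with Nfkbiz at -1.09, Tnfaip3 at -0.99, Bcl3 at -0.79 and Nfkbia at -0.53, but Nfkbie the highest of the list at 0.41 (interval 0.27 to 0.57), while the subunits Nfkb1, Nfkb2, Rel and Relb stood between 0.10 and 0.29. Tnfaip3, at 31.6 CPM in FV with ibuprofen and 62.9 CPM in FV without, was the gene just outside the 2-fold limit, and Atf3, at 13.7 and 27.5 CPM, the gene just inside it. The chemokine Cxcl2 lay below the level limit with 178 counts in FV with ibuprofen and 659 in FV without. Tnf had 116 counts with ibuprofen and 117 without (log2 fold -0.23 after scaling), and Il6 had 42 with and 18 without (0.92).

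Interleukin-1 family genes differed among themselves. Besides Il1r2, the list's 2-fold lower gene was Il1rap, the accessory chain that the decoy and the signalling receptor share, at 10.8 CPM in FV with ibuprofen and 32.8 CPM in FV without (-1.59, interval -1.72 to -1.47). Other receptors of the list stood on both sides, with Il18r1 at 0.35, Sigirr at 0.34 and Il18rap at -0.56, and the adaptor Myd88 stood at -0.43. The cytokine Il1b stood at 52.2 and 50.7 CPM (0.04, interval -0.03 to 0.12). Inflammasome genes were also close to even, with the sensor Nlrp3 at -0.10, Casp1 at -0.09 and the pore-forming Gsdmd at 0.01. The median of the 17 measured genes among 26 listed was -0.10, and 0.15 on the TPM scale. Toll-like receptors were divided, 7 above and 7 below 0 among 14 measured of 21. Tlr2 (-0.66), Tlr8 (-0.65) and Tlr4 (-0.46) were lower by value, and Cd180, a B cell relative of Tlr4, stood at 0.96 and Tlr9 at 0.50. Their median was 0.01, and -0.02 with TMM over the 2 FV libraries.

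The glucocorticoid list was split in the same way. Of 25 genes, 18 passed the limit, 5 were at least 2-fold lower, 7 lay above 0, and the median was -0.20 (0.08 on the TPM scale). Besides Il1r2, the lower genes were the chaperone Fkbp5 (19.1 CPM in FV with ibuprofen, 51.6 CPM in FV without, -1.43), the cell cycle inhibitor Cdkn1a (-1.23), annexin Anxa1 (94.9 and 214 CPM, -1.18) and the clock gene Per1 (-1.07). Tsc22d3, the leucine zipper that glucocorticoids induce in lymphocytes, was at -0.07 and Txnip at 0.01. Tsc22d1, at 0.73, and Sesn1, at 0.83, were the highest. For Fkbp5, FV without ibuprofen was the highest of 7 libraries and FV with ibuprofen the next, the others holding 7.48 to 12.8 CPM.

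Genes of the pathway that ibuprofen blocks showed 1 call. Of 24 genes for prostanoid synthesis and receptors, 9 passed the limit. Hpgd, the dehydrogenase that inactivates prostaglandins, stood at 48.4 CPM in FV with ibuprofen and 23.0 CPM in FV without (1.07, interval 0.98 to 1.17), and FV with ibuprofen was the highest of 7 libraries. Ptgs1, the constitutive cyclooxygenase and a platelet gene, stood at 48.8 CPM in FV with ibuprofen and 33.5 CPM in FV without (0.54, interval 0.46 to 0.62). Thromboxane synthase, Tbxas1, was at 0.65 and the prostacyclin receptor Ptgir at 0.69. On the other side, Pla2g7, which hydrolyses platelet-activating factor, was at -0.54 and the prostaglandin exporter Abcc4 at -0.36. Below the level limit, the inducible cyclooxygenase Ptgs2 had 82 counts in FV with ibuprofen and 162 in FV without, or 1.25 and 2.89 CPM (-1.18, interval -1.61 to -0.81). Receptors below the limit were also far apart, Ptger1 with 2 counts in FV with ibuprofen and 74 in FV without, and Tbxa2r with 278 and 87. The list's median was 0.54, and -0.05 with no limit on level.

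In the leukotriene branch, which starts from the same fatty acid by way of 5-lipoxygenase, 8 of 21 genes passed, with a median of -0.33. Dpep2, which cleaves leukotriene D4, the leukotriene B4 receptor Ltb4r1 and the formyl peptide and lipoxin receptor Fpr2 were at least 2-fold lower. Lta4h, which makes leukotriene B4, stood at -0.49, and Alox5ap, which presents arachidonic acid to 5-lipoxygenase, at -0.11. Cysltr2, a receptor for cysteinyl leukotrienes, stood at 14.2 CPM in FV with ibuprofen and 7.07 CPM in FV without, just inside the 2-fold limit. The platelet lipoxygenase Alox12 stood at 0.62.

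B cell and T cell genes were higher by less than 2-fold with few exceptions. Of 28 B cell genes, 23 passed the limit, 22 lay above 0, 3 were at least 2-fold higher, and the median was 0.70. Cxcr5, which guides B cells into follicles, stood at 22 CPM in FV with ibuprofen and 7.93 CPM in FV without (1.47, interval 1.32 to 1.63). The immunoglobulin D gene Ighd stood at 82.8 and 37.7 CPM (1.14) and the transcription factor Bach2 at 26.7 and 13.3 CPM (1.00). Ighm was at 0.62, Cd79a at 0.64 and the kappa constant gene Igkc at -0.12. FV without ibuprofen was the lowest of 7 libraries for Cxcr5 and Bach2, and FV with ibuprofen was below every other library except TV without ibuprofen, which held 16.4 CPM of Cxcr5 and 23.9 CPM of Bach2. Cxcr5 overlaps Bcl9l (0.11), and reads there cannot be told apart if strand was not used in counting.

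Among 30 T cell genes, 27 passed, and each of these lay above 0, between 0.05 for Cd8a and 0.85 for the receptor adaptor Trat1; the median was 0.48. The homing receptor Ccr7 stood at 86.7 CPM in FV with ibuprofen and 50.5 CPM in FV without (0.78), Lef1 at 0.73 and Cd4 at 0.67, while Tcf7, the most abundant of the list, stood at 0.45 and Satb1 at 0.43. The killer T cell coreceptor chains Cd8a (interval -0.05 to 0.16) and Cd8b1 (0.17) were the lowest. NK and cytotoxic genes had a median of 0.10 over 11 of 22 genes, against 0.02 for all genes, and none was 2-fold apart. Of the 11, 10 lay above 0, against 54.1% of all genes. Ncr1 stood at 0.01, the interleukin-2 receptor chain Il2rb at -0.04, granzyme A, Gzma, at 0.43 and Txk, the highest of the list, at 0.54. MHC class II genes had a median of 0.58 over 10 of 15, with Cd74 at 844 CPM in FV with ibuprofen and 558 CPM in FV without (0.60), and the master regulator Ciita at 0.91. H2-Eb1 stood apart at -0.36, with 76.9 CPM in FV with ibuprofen and 98.9 CPM in FV without.

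Platelet genes were mostly higher by less than 2-fold. Of 33 genes, 30 passed the limit and 28 lay above 0, with a median of 0.63 and Myct1 (1.07) as the sole member at least 2-fold higher. Tubb1, the platelet tubulin, stood at 400 CPM in FV with ibuprofen and 206 CPM in FV without (0.96), the chemokine Ppbp at 993 and 565 CPM (0.81), and the integrin Itga2b at 821 and 616 CPM (0.42). The exceptions were F13a1 (-0.77) and thrombospondin 1, Thbs1 (-0.61), which classical monocytes also express and which stand on that list too. Summed over the list, platelet transcripts came to 9023 CPM in FV with ibuprofen and 6602 CPM in FV without, against 2277 to 11573 CPM in the others. Several of the 24 higher genes that are on no list are also known from platelets or megakaryocytes. These include the serotonin transporter Slc6a4 (155 CPM in FV with ibuprofen, 74.6 CPM in FV without, 1.05) and the guanylate cyclase subunit Gucy1b1 (1.02), both chosen after their values were seen, and, by the naming rule, Angpt1, a ligand of the Tie2 receptor (1.10, interval 0.99 to 1.20).

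The remaining highest named genes were of mixed kinds. Adnp, a chromatin-bound homeobox protein, stood at 41.2 CPM in FV with ibuprofen and 12.5 CPM in FV without (1.72), while the other 5 libraries held 32.6 to 45.9 CPM. Adnp overlaps the predicted gene Gm20716, and both have the same lower coordinate on chromosome 2 (168180965). Gm20716 stood the other way, at 0.765 CPM in FV with ibuprofen and 31.5 CPM in FV without. Summed, they came to 42.0 CPM in FV with ibuprofen and 44.0 CPM in FV without (-0.07), so the assignment of reads between them is uncertain, as is the difference of either. Colec12, a scavenger receptor of the collectin family, stood at 17.0 and 5.20 CPM (1.70), with 1.47 to 3.95 CPM elsewhere, so FV with ibuprofen stood apart. Lrrn3 (1.46), the zinc transporter Slc39a4 (1.36), Pcp4l1 (1.31), Bend4 (1.23), the tubulin Tubb2b (1.18), Maged2 (1.15), Ldlrad3 (1.13) and the interferon-induced Ifit2 (1.12) completed the rule's list. Ifit2 was not accompanied by the rest of its pathway, where Isg15 stood at -0.66 and Rsad2 at -0.34, and the median of 17 measured genes out of 34 was 0.22.

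**Figure D3:**
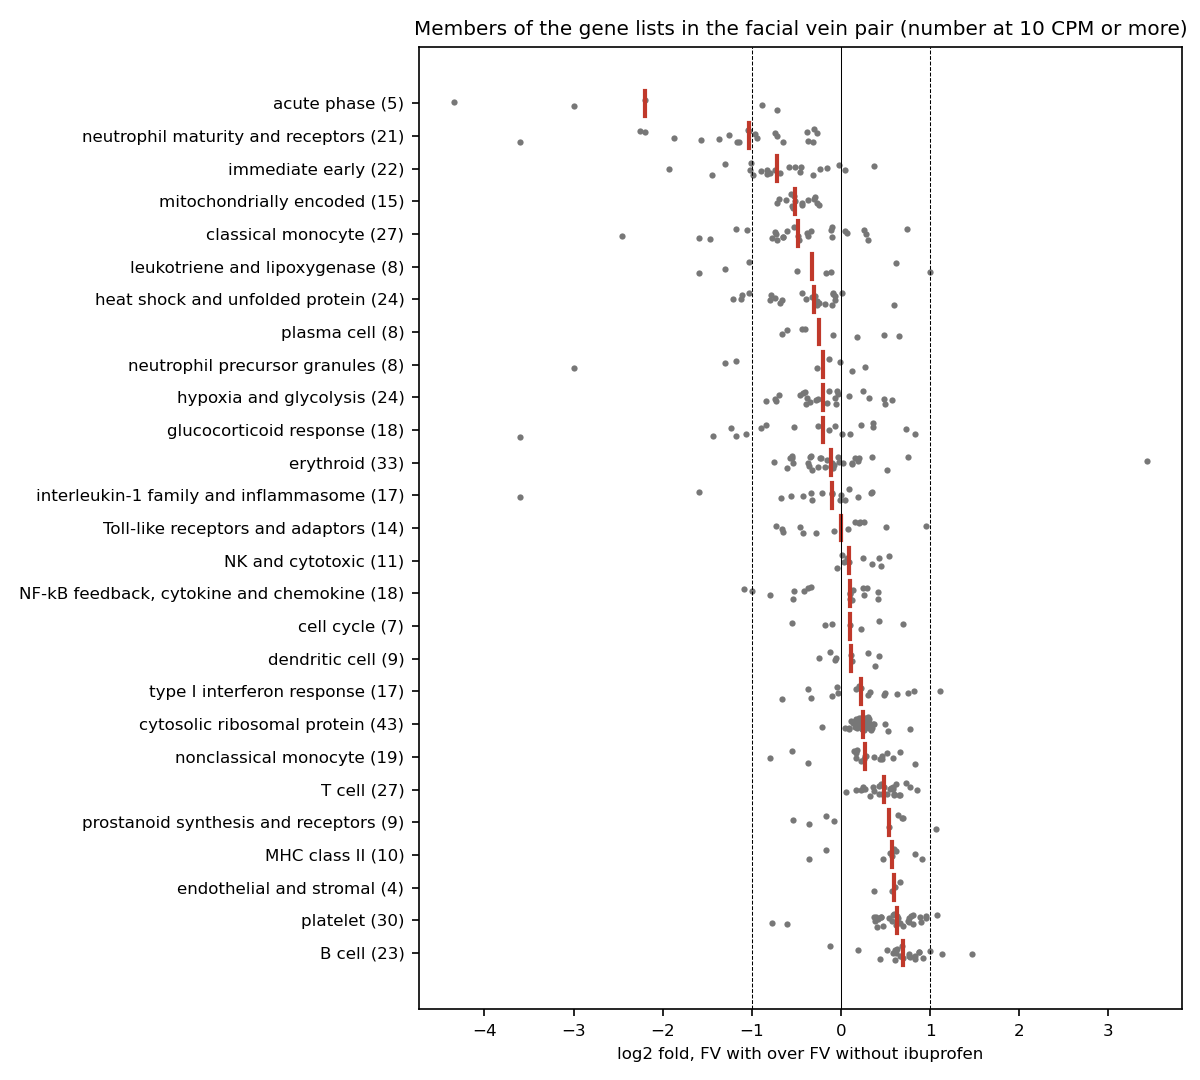
Log2 fold of FV with over FV without ibuprofen (x axis) for members of the gene lists with at least 4 genes at a mean of 10 CPM or more; points are genes, red bars the median, and the number of genes is in brackets. Acute phase, neutrophil maturity and immediate early genes lie lowest (medians -2.19, -1.03 and -0.72) and B cell and platelet genes highest (0.70 and 0.63).

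Red cell and housekeeping transcripts differed less. Erythroid genes had a median of -0.12 over 33 of 40 genes (0.16 on the TPM scale), with Hbb-bs at -0.33 and Hba-a2 at -0.55. Hbq1a, a theta globin, was the highest gene of all at 78.2 CPM in FV with ibuprofen and 7.18 CPM in FV without (3.44), whereas its near-identical neighbour Hbq1b stood at 82.6 and 120 CPM (-0.54). Summed, both copies came to 161 CPM in FV with ibuprofen and 127 CPM in FV without (0.34), so the assignment of reads between them is uncertain. The same holds for Rpl35a, whose pseudogene copies Rpl35a-ps3 and Rpl35a-ps6 stood at 1.38 and 1.5 while the sum with the parent gene gave 0.15. Cytosolic ribosomal protein genes lay close together, 42 of 43 above 0 with a median of 0.25. Glycolysis and hypoxia genes had a median of -0.20 over 24 of 30 (0.07 on the TPM scale), with Hif1a at -0.84 and the glucose transporter Slc2a3, abundant in platelets, at 0.58.

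Measures of RNA content differed between the libraries as well. Each of the 15 mitochondrially encoded genes was below 0, with a median of -0.52, COX1 at 1720 CPM in FV with ibuprofen and 2640 CPM in FV without, and a summed level of 12918 and 17141 CPM. The 18S ribosomal RNA copy Rn18s-rs5 took 0.538% of all counts (FV with ibuprofen) and 0.119% (FV without), the highest and the lowest share of the 7 libraries. Its part in the other differences was not tested. The predicted gene Gm20716 had the lowest log2 fold of all, -5.30 (50 counts in FV with ibuprofen, 1764 in FV without). It stood at 0 counts in RP with ibuprofen and in TV without ibuprofen, and at 12.6 to 16.0 CPM in the other 3. As given above, its sum with the overlapping Adnp was near even.

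Transcripts of skin, glands and connective tissue were scarce in both libraries. None of 32 skin and hair genes passed the limit, and their sum was 9.03 CPM in FV with ibuprofen and 16.6 CPM in FV without, against 3.67 to 8.23 CPM in the others. Dmkn, made by keratinocytes, had 12 counts in FV with ibuprofen and 213 in FV without. Other epithelial genes were closer, with Krt6b at 51 and 76 counts (log2 fold -0.77) and Calml3 at 52 and 64 (-0.50). The water channel Aqp5 had 31 and 30 (-0.16). Krt6b and Aqp5 had 0 counts in all 5 other libraries. Of the defining skin keratins, Krt5 had 5 counts in FV with ibuprofen and 0 in FV without, and Krt14 had 0 and 4. The collagens Col1a1 and Col3a1 had 11 and 6 counts in FV with ibuprofen and 59 and 55 in FV without. Muscle creatine kinase, Ckm, had 28 and 84 counts (log2 fold -1.73), and the endothelial cadherin Cdh5 63 and 62 (-0.19). The part of such tissue in the differences of Saa3, Lcn2 or other genes was not tested.

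The genes lower in FV were set beside the RP and TV pairs, each with over without ibuprofen. Those pairs share no library with the FV pair, apart from the common scaling. Of the 86 lower genes, 39 were at least 2-fold lower in the TV pair, which is 45.4% of them, against 6.15% of all 6239 genes, and 10.2% of the 384 genes so called in TV. Altogether 78 of 86 were below 0 in TV, against 53.1% of all genes. In RP, 4 of 86 were at least 2-fold lower (4.65%, against 0.737% of all genes, and 8.70% of the 46 called there), and 54 were below 0, against 58.8% of all genes. In the order FV, RP, TV, the log2 fold of Saa3 was -4.35, -1.88 and -4.29, that of Il1r2 -3.60, 0.32 and -2.23, that of Vcan -2.46, -1.03 and -1.90, and that of Lbp -3.05, 0.40 and 0.16. Saa3 in RP was low in both libraries, at 0.157 CPM with and 0.676 CPM without ibuprofen. Which genes are lower depends on the library without ibuprofen too, since FV without ibuprofen was the highest of all 7 for 79 of the 86 genes, against 23.7% of all genes, a share that choosing genes for being low with ibuprofen raises.

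The 32 higher genes did not repeat in TV. There 0 of 32 were at least 2-fold higher (1.14% of all genes were), 16 were at least 2-fold lower, and the median was -1.0. In RP, 5 of the 32 were at least 2-fold higher, against 0.385% of all genes, and 5 at least 2-fold lower. The 5 higher ones were Hbq1a, Pcp4l1 and the pseudogenes Rpl35a-ps3, Rpl35a-ps6 and Gm10243. For Hbq1a and the Rpl35a copies the assignment of reads is uncertain, as given above, so this share is no measure of agreement between routes. In the same order, the log2 fold of Slc6a4 was 1.05, -0.97 and -1.57, that of Cxcr5 1.47, -0.06 and 0.86, and that of Hpgd 1.07, -0.90 and -0.69. Medians of the platelet list were 0.63, -0.72 and -1.40, while those of T cell genes were above 0 in all 3 pairs, at 0.48, 0.56 and 1.19. Each route is a single pair, so no difference between routes was tested.

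**Figure D4:**
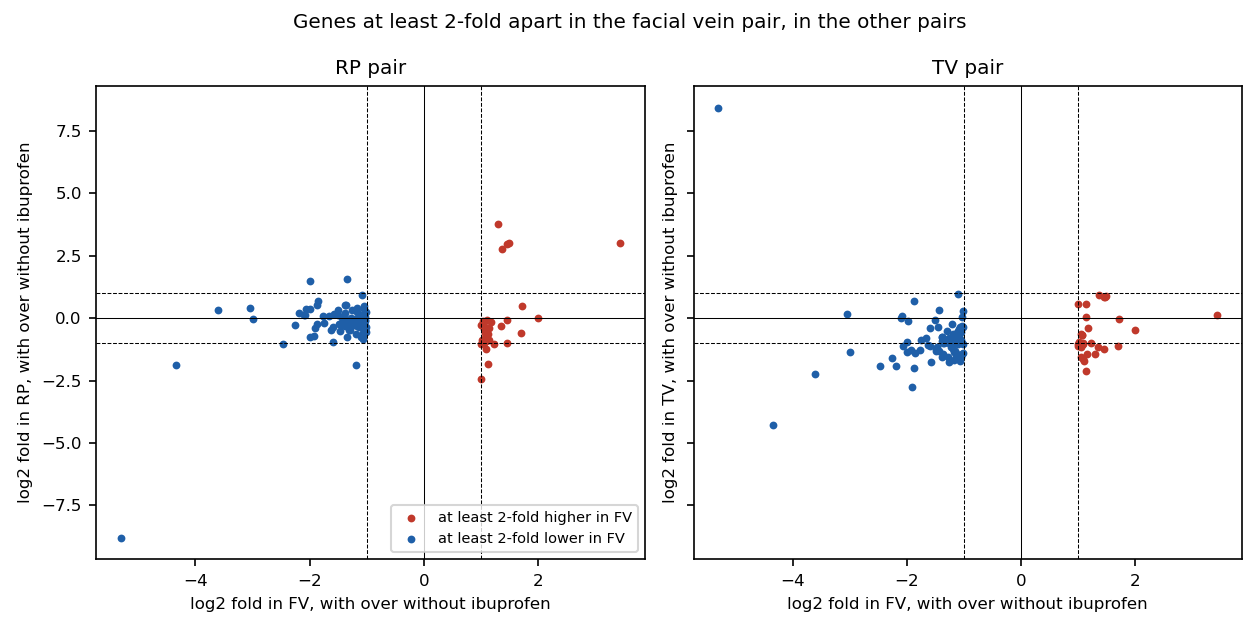
Log2 fold with over without ibuprofen in RP (left) and TV (right) on the y axes against the log2 fold in FV on the x axes, for the 118 genes at least 2-fold apart in FV; dashed lines mark 2-fold. Of the genes lower in FV (blue), 78 of 86 lie below 0 in TV and 54 of 86 in RP, and 16 of the 32 higher genes (red) lie at -1 or lower in TV.

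At the limit of level, Emc6 and the pseudogene Gm9762 (each 10.1 CPM in FV with ibuprofen, 9.88 CPM in FV without) were just inside. Slc7a8 (8.78 and 11.2 CPM) was just outside. On the higher side the pseudogene H2-T10, at 19.7 and 9.93 CPM, was just outside 2-fold.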

How the data were processed

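Read counts per gene, as deposited by the authors, were whole numbers for 45777 genes and 7 libraries, not normalized per the file headers. The deposited FPKM values did not enter any result. TPM values, scaled by the authors for transcript length, served only as an alternative scale. RNA extraction used an RNeasy kit and library preparation a TruSeq Stranded mRNA kit, per the labels' protocols. HISAT2 2.1.0, Trimmomatic 0.38 and the build mm10 are named, without their roles, in the submitters' processing notes. Not given in the sources used here are the counting program, whether it used strand, and any pooling of animals.

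Columns were matched to samples by library number. Counts were scaled by TMM over 7 libraries (edgeR 4.0.16, R 4.3.3), and log2 CPM taken with a prior count of 2, so the folds of genes with few counts are drawn towards 0. Genes needed a mean of at least 10 CPM over the 2 FV libraries. A chi-square comparison of both libraries gave 70.9 per degree of freedom, so they were not treated as repeats. The calculation was checked on simulated data. Intervals of a ratio are exact conditional binomial at 95% (scipy 1.17.1), without the prior count. Coordinates are 1-based; 45679 gene IDs matched the GRCm38.p6 table.

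The 31 gene lists and their genes (785 symbols, 766 of them in the table and 39 on more than 1 list) were chosen with earlier results of these data known. Named genes were the 14 largest folds per direction, leaving out predicted genes, clones, pseudogenes and receptor segments, and from each list the 4 members of highest level and the 2 of largest fold per direction, with Ptgs1, Ptgs2 and the genes nearest each limit. Other genes were named after their values were seen. Alternatives were DESeq2 1.42.0 size factors, upper quartile scaling, TMM over 2 libraries or without erythroid and mitochondrial genes, TPM, 4 other level limits and 2 other prior counts.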

Additional observations from a re-analysis of the deposited data

Results flagged for a closer look

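The medians of 3 gene lists and the log2 folds of 2 named genes had the opposite sign in the FV pair to that in both other routes, at a size of at least 0.3 for lists and about 1 for genes in all 3 pairs. The differences between routes were not tested. In the order FV, RP, TV, the platelet list had medians of 0.63, -0.72 and -1.40. Prostanoid synthesis and receptor genes, which include the platelet genes Ptgs1 and Tbxas1, had 0.54, -0.42 and -0.76. Endothelial and stromal genes, of which 4 of 24 were measured and Vwf is also a platelet gene, had 0.59, -0.68 and -1.46. Angpt1 had log2 folds of 1.10, -1.22 and -1.0, and Cysltr2 had 1.00, -1.05 and -1.10.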

How the results depend on the processing

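With 1 library a side there is no replicate check. No paired analysis was possible because each group holds a single library. The counts of 32 higher and 86 lower genes became 89 and 36 on the TPM scale, 175 and 212 with the limit on level at 1 CPM, 52 and 117 at 5 CPM, 6 and 25 at 50 CPM, and 1719 and 1473 with no limit. The cause was not tested. Of the 118 genes, 30 higher and 36 lower ones were still 2-fold apart on the TPM scale. The 4 other scalings gave 26 to 28 higher and 88 to 97 lower genes, and both other prior counts 31 or 32 and 86. No named gene at least 2-fold apart changed sign in any alternative.

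List medians changed sign as follows. On the TPM scale these were erythroid (0.16), glucocorticoid (0.0767), hypoxia and glycolysis (0.0731), interleukin-1 (0.15) and neutrophil precursor granules (0.0743). The Toll-like receptor median was -0.039 with DESeq2 size factors, -0.0196 with TMM over 2 libraries, -0.0427 without erythroid and mitochondrial genes, -0.0157 with upper quartile scaling and -0.35 at 50 CPM. The NF-kB median was -0.12 at 1 CPM and -0.37 at 50 CPM, and the cell cycle median -0.0304 at 5 CPM. With no limit, the endothelial and stromal median was -0.0774, the plasma cell median 0.11 and the prostanoid median -0.05.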

Other observations

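Dendritic cell genes had a median log2 fold of 0.11 in the FV pair over 9 of 18 genes, with Irf8, a factor of dendritic cell and monocyte development, at 90.6 CPM in FV with ibuprofen and 67.6 CPM in FV without (0.42) and the phospholipase Pld4 at 158 and 188 CPM (-0.25). Of the list of basophil, mast cell and eosinophil genes, 2 of 18 reached 10 CPM, Gata2 at 0.84 and the histidine decarboxylase Hdc at -0.31; below it, the IgE receptor chain Ms4a2 had 286 counts in FV with ibuprofen and 103 in FV without. Cell cycle genes were near 0, with a median of 0.10 over 7 of 35 genes, Mki67 at 43.3 and 46.4 CPM (-0.10) and Mcm7 at 0.70.

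Among listed genes of low level, the tropomyosin Tpm2 of the muscle list lay below the level limit, with 9.39 CPM in FV with ibuprofen and 2.89 CPM in FV without, with 1.51 to 5.62 CPM in the other libraries. The dipeptidase Dpep3 of the leukotriene list had 13 counts in FV with ibuprofen and 107 in FV without, and its count was 0 in both other ibuprofen libraries and in Non.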
